A study of Mus musculus with 3 samples.

Results

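GLI3 binding was examined at 45 mouse genes for the primary cilium: the intraflagellar transport (IFT) particles, their motors, the BBSome, the transition zone, the basal body and a few ciliary regulators of Hedgehog (HH) signaling. They were listed for their known function in the cilium, with earlier results of these data known. The reference for them was 21912 protein-coding genes, the 45 included. GLI3 is a transcription factor that responds to HH signaling. It was recovered by FLAG chromatin immunoprecipitation and sequencing (ChIP-seq) from E10.5 forelimb buds (32 to 35 somites) of mixed-background mice carrying an endogenous FLAG-tagged Gli3 allele, although the genotype label reads wild type. There were 2 ChIP replicates, each pooled from 2 litters, and 1 input, all from dissociated limb buds. ChIP-seq on pooled whole tissue cannot tell which of its cells a peak comes from, and the tissue label could not be checked against marker expression because no expression was measured.

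The processed file used here was 1 list of 17149 peaks, 7282 of them with a false discovery rate (FDR) under 0.05. These 7282 are called GLI3 binding regions (GBRs) here, and the full set is called listed peaks. Enrichment is the authors' log2 ratio of ChIP over input, taken at the strongest window of the peak, and the rank orders peaks from the strongest. The list combines the replicates. No value therefore carries a replicate error, no test between genes was possible from replicates, and the order of values below describes this list. The list holds no read counts, so the number of reads behind each value is unknown.

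The primary cilium is a microtubule-based organelle through which vertebrate cells receive HH signals. IFT-B carries cargo toward the tip with kinesin, and IFT-A with dynein carries it back. The BBSome moves membrane proteins, and the transition zone gates the base. Without cilia, GLI3 is not processed correctly into its repressor form, so limb patterning is disturbed when many of these genes are lost.

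A promoter peak was a listed peak whose summit fell between 2 kb upstream and 1 kb downstream of any transcription start site (TSS) of the gene. Such a peak was present at 18 of the 45 cilium genes (40.0%), against 30.8% of all protein-coding genes. A promoter GBR was present at 11 (24.4%), against 17.0% of all. For 7 genes the promoter held only peaks with an FDR of 0.05 or more, and 27 had none. The count at an FDR under 0.01 was also 11, where the share of all genes was 12.3%.

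Most promoters of these genes are CpG-rich, and GLI3 peaks are frequent at such promoters in general. A CpG island lay at the 5′ end of 40 of the 45 cilium genes (88.9%), compared with 12062 of the 21912. Among genes with an island, a promoter peak was found at 15 of 40 cilium genes (37.5%) and at 49.8% of all 12062. Promoter GBRs were found at 10 of 40 and at 28.0%. At these limits the share at cilium genes was thus above that of all genes and below that of CpG island genes. At an FDR under 0.01 the order to CpG island genes turned, with a promoter peak at 24.4% of the 45 cilium genes and 20.2% of the 12062. The genes without an island were Bbs1, Cc2d2a and Evc2, which had a promoter peak, and Tctn2 and Gpr161, which had none. Of all genes without an island, 7.42% had a promoter peak.

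**Figure D1:**
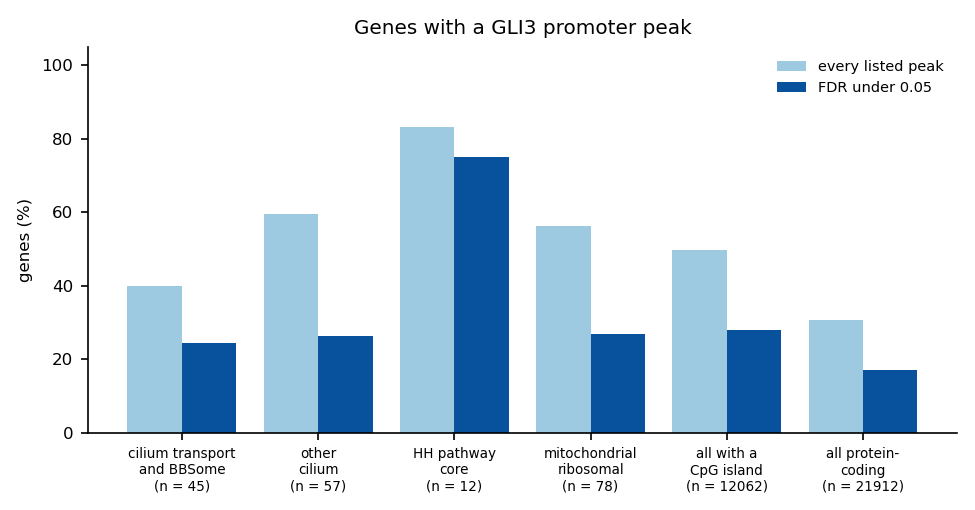
Percentage of genes with a GLI3 promoter peak in 6 sets of genes, for every listed peak (light bars) and for peaks with an FDR under 0.05 (dark bars), n being the number of genes. The cilium transport and BBSome genes (40.0% and 24.4%) lie between all protein-coding genes (30.8% and 17.0%) and those with a CpG island (49.8% and 28.0%), and the HH pathway core genes are highest (83.3%, and 9 of 12 genes).

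The binding that was found was strongest at the BBSome genes Arl6 and Ttc8 and at the HH regulators Evc and Evc2. At the 18 genes the highest-ranked promoter peak had a median log2 enrichment of 2.64, with a range of 1.88 to 4.14. Over the 6740 genes with any promoter peak the median was 2.39. For GBRs alone the medians were 3.05 (11 genes) and 2.73 (3734 genes). A promoter peak among the 1000 highest ranks, a limit set after the values were seen, was present at 4 of the 45 (8.89%), through 3 distinct peaks because Evc and Evc2 share theirs. The share was 2.61% of all genes and 4.34% of CpG island genes.

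**Figure D2:**
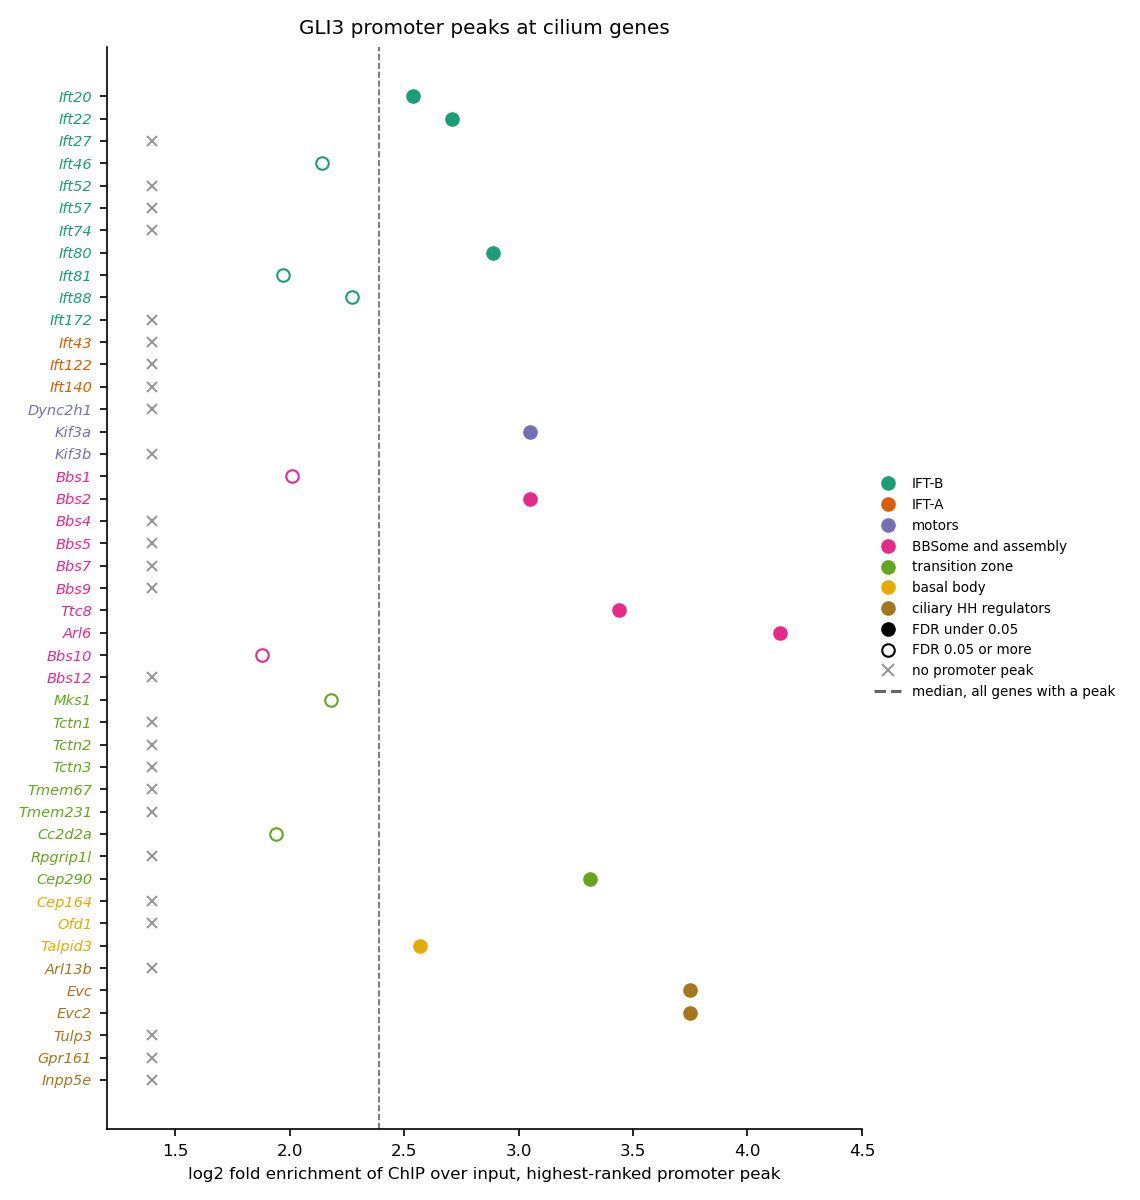
Log2 fold enrichment of ChIP over input at the highest-ranked promoter peak of each of the 45 cilium genes, coloured by role. Filled points have an FDR under 0.05, open points an FDR of 0.05 or more, crosses mark genes without a promoter peak (placed at the left edge, not at a value), and the dashed line is the median of 2.39 over all genes with a peak. Arl6 is highest at 4.14, and the 3 IFT-A genes have no peak.

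Among 10 genes for the BBSome and its assembly, 5 had a promoter peak and 3 a promoter GBR. Arl6 encodes the small GTPase that recruits the BBSome to membranes. It carried the strongest peak of the whole set, on chromosome 16 from 59638900 to 59639749, with a log2 enrichment of 4.14 (17.7-fold), rank 173 and a length of 850 bp. The Poisson −log10 p reached the ceiling of 100 there. The summit lay 59 bp inside the gene, in an annotated UTR. Ttc8, a BBSome subunit also known as Bbs8, followed at 3.44 (10.9-fold, rank 839, chromosome 12, 98920000 to 98920849), with the summit 237 bp upstream of its TSS. Bbs2, another subunit, had 3.05 (8.27-fold, rank 1864, chromosome 8, 94098150 to 94098749), 326 bp inside the gene. The peaks at the subunit gene Bbs1 (2.01, FDR 0.454) and at Bbs10, which encodes a chaperonin-like assembly factor (1.88, FDR 0.807), were weak. The subunit genes Bbs4, Bbs5, Bbs7 and Bbs9, and the assembly gene Bbs12, had no promoter peak. The subunit genes of the BBSome therefore ranged from rank 839 at Ttc8 to no promoter peak.

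Of the IFT-B genes, 6 of 11 had a promoter peak and 3 a GBR. Ift80 had the strongest, at 2.89 (7.40-fold, rank 2532, chromosome 3, 69004900 to 69005449). Its summit was 447 bp upstream of Ift80 but 26 bp from a TSS of Smc4, a condensin gene in the opposite direction. The 5′ end of Smc4, 168 bp from that of Ift80, is a different TSS. Another 3 listed peaks of log2 1.94 to 2.01 lay in the promoter window of Ift80. Ift22, for a small GTPase-like subunit, had 2.71 (rank 3501, FDR 0.00113, chromosome 5, 136907900 to 136908149), 83 bp upstream. Ift20, whose product also works at the Golgi, had 2.54 (rank 4813, FDR 0.00706, chromosome 11, 78536300 to 78536599), 16 bp from a TSS and beside the divergent gene Tnfaip1. Ift88, needed to build cilia, fell just outside the threshold at 2.27 and an FDR of 0.0704. Ift46 (2.14, FDR 0.233) and Ift81 (1.97, FDR 0.484) were further outside. Ift27, Ift52, Ift57, Ift74 and Ift172 had no promoter peak, and neither did the 3 IFT-A genes Ift43, Ift122 and Ift140.

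Of the motor genes, 1 of 3 was bound at its promoter. Kif3a, a subunit of the kinesin that drives anterograde transport, had a GBR of log2 3.05 (8.28-fold, rank 1862, chromosome 11, 53567300 to 53567649) 54 bp from a TSS. Kif3b, which encodes its partner subunit, and Dync2h1, the heavy chain of the ciliary dynein, had none.

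At the transition zone, 3 of 9 genes had a promoter peak and 1 a GBR. Cep290, which links the ciliary membrane to the microtubules, had a log2 enrichment of 3.31 (9.92-fold, rank 1098, chromosome 10, 100487050 to 100487649). The summit was 156 bp upstream of Cep290 and 52 bp from a TSS of Tmtc3, which starts 208 bp away in the opposite direction. Mks1 (2.18, FDR 0.143) and Cc2d2a (1.94, FDR 0.727), both part of the MKS complex, had weaker peaks. Tctn1, Tctn2, Tctn3, Tmem67, Tmem231 and Rpgrip1l had none. Of the 3 basal body genes, Talpid3 had a GBR of log2 2.57 (5.94-fold, rank 4553, FDR 0.00706, chromosome 12, 71136850 to 71137249) 74 bp inside the gene. Cep164, a distal appendage gene, and Ofd1 had none.

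Of the 6 ciliary HH regulators, 2 had a promoter GBR and the others no promoter peak. Evc and Evc2 encode partners that bind Smoothened at the cilium base, and their 5′ ends lie 1605 bp apart in opposite directions on chromosome 5. They had 3 listed peaks between them, 2 of which were GBRs. The stronger, from 37338250 to 37338649, had a log2 enrichment of 3.75 (13.5-fold, rank 448), with its summit 37 bp upstream of Evc2. The other, from 37336750 to 37337099, had 3.30 (9.88-fold, rank 1115), with its summit 98 bp upstream of Evc. Each gene thus had a GBR at its own start, and because the windows overlap each peak counted for both. Arl13b, Tulp3, Gpr161 and Inpp5e had no promoter peak. Their products are a ciliary GTPase, an adaptor that brings receptors into the cilium, a receptor that restrains HH signaling and a phosphoinositide phosphatase.

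Where a promoter peak existed it mostly sat close to an annotated TSS of the gene, which for Ift46 was one inside the gene. The summit of the highest-ranked peak was within 500 bp of a TSS at 17 of the 18 genes, compared with 87.3% of all genes with a promoter peak. The exception was Evc, whose higher-ranked peak is the one at Evc2. The median distance was 87.5 bp, and over all genes 122 bp. The summits lay upstream of the gene for 7 genes, in an annotated UTR for 7, in an intron for 2 and in a coding exon for 2. Next to the window limits, the summits just inside were the one at Evc2, 1568 bp upstream of Evc, the one at Evc, 1507 bp upstream of Evc2, and an Ift80 summit 1467 bp upstream. Just outside lay summits at Ift81 (5111 bp inside the gene), which also had a promoter peak, and at Ofd1 (5737 bp from the TSS). None of the 27 genes without a promoter peak had a summit within 5 kb, and their median distance to a summit was 45.9 kb.

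Divergent promoters were common in the set. A protein-coding gene started within 1 kb in the opposite direction at 10 of 45 genes (22.2%), against 6.76% of all genes and 11.3% of those with a CpG island. Of these 10, 5 had a promoter peak and 4 a GBR, compared with 57.9% and 33.9% of all 1482 genes with such a partner. The peaks were at Ift20, Ift46, Ift80, Cep290 and Talpid3, and there was none at Ift122, Ift140, Dync2h1, Tctn3 and Rpgrip1l. Partners were scored at the 5′ end of the gene, but peaks at any TSS. The Ift46 summit (44772922) was 12 bp from a TSS inside the gene, not at the 5′ end beside Arcn1 (44767908). Where the peak is at the shared start, the list cannot assign it to either gene. For 2 of the 18 genes, Ift80 and Cep290, the TSS nearest to the summit belonged to a gene outside the set.

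To ask whether these peaks carry a recognisable GLI site, the sequence up to 250 bp on either side of each summit was searched on both strands for GACCACCCA with at most 1 mismatch. A match was found at 2 of 22 distinct promoter peaks (9.09%) and at 15.3% of all 8112 promoter peaks. For GBRs it was 1 of 11 (9.09%) and 17.7% of 3748. None of the 22 held the exact consensus, which was in 1.15% of all promoter peaks. Among the GBRs only the one at Ift22 held a match, and those at Arl6, Evc2, Ttc8 and Cep290, the 4 highest in rank, held none. The absence of a match says only that these letters were not found in the window. Both matches are shown because they read the same and carry the substitution C6G, counted from the first base of the consensus. The first is 69 bp from the Ift22 summit (mm10 chr5:136908116-136908156, plus strand) and the second 159 bp from the Bbs1 summit (chr19:4906373-4906413, plus strand), with the match in capitals.
Ift22: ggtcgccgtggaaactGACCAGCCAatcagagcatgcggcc
Bbs1: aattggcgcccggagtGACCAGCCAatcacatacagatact
In both, the last bases of the match run into a CCAAT box, the sequence bound by the general promoter factor NF-Y. Such an overlap was seen at 2.58% of the 1239 promoter peaks that hold a match.

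Ciliary genes are known to be regulated by RFX factors, which bind the X-box. It was searched as GTTNCC and GGNAAC separated by 2 bases, with at most 1 mismatch, within 250 bp of the 5′ end. The pattern equals its own reverse complement, so both strands are covered. It was found at 12 of 45 cilium genes (26.7%) and at 3.54% of all genes, and without a mismatch at 4 (8.89%) and 0.566%. The 12 were Ift22, Ift57, Ift172, Bbs1, Bbs4, Bbs7, Arl6, Mks1, Tctn1, Tctn2, Tmem231 and Talpid3. A promoter peak was present at 5 of them (41.7%) and at 13 of the 33 without a match (39.4%). For GBRs it was 3 of 12 and 8 of 33 (24.2%). Over all protein-coding genes, a promoter peak was present at 34.8% of the 776 with a match and 30.6% of the 21136 without. The shares with a promoter GBR were 18.2% and 17.0%. Genes with and without the pattern thus had similar shares of GLI3 peaks in this set, a comparison of small counts that was not tested.

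The 4 exact matches (first 4 lines) are printed in the direction of the gene, with the X-box in capitals, followed by 1 match from each of the 3 other genes with a promoter peak. Ift22 had 2 matches, and the one nearer to its summit is shown, while the other ends just before the GLI match printed above. All are mm10, at chr3:36613489-36613518 (Bbs7, minus strand), chr16:59639152-59639181 (Arl6, minus), chr11:87853183-87853212 (Mks1, plus), chr5:122264403-122264432 (Tctn1, minus), chr5:136908079-136908108 (Ift22, plus), chr19:4906605-4906634 (Bbs1, minus) and chr12:71136833-71136862 (Talpid3, plus).
Bbs7: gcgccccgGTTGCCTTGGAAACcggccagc
Arl6: aagctcccGTTGCCAAGGGAACgccgcgcg
Mks1: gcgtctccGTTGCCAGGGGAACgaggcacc
Tctn1: ctgtgactGTTGCCCGGGCAACagacgggc
Ift22: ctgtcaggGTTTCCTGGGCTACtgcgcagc
Bbs1: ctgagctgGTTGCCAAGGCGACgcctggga
Talpid3: tcacttccTTTTCCACGGCAACggaatctg
Counted from the first base of the pattern, the last 3 carry the substitutions A12T (Ift22), A12G (Bbs1) and G1T (Talpid3).
Of the exact matches, Arl6 had the strongest peak of the set, Mks1 a weak one, and Bbs7 and Tctn1 none. At the 5 genes with both, the X-box printed was 26 bp (Ift22), 67 bp (Bbs1), 75 bp (Talpid3), 110 bp (Mks1) and 166 bp (Arl6) from the summit. A longer stretch at Arl6 (chr16:59639152-59639352, minus strand) is given to show the strongest peak, with the summit at base 21 and the X-box in capitals toward the end.
Arl6 start: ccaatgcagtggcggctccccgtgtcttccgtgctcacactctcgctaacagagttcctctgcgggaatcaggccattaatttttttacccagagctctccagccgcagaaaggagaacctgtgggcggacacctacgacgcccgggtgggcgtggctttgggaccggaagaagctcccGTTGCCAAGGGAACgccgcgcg

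**Figure D3:**
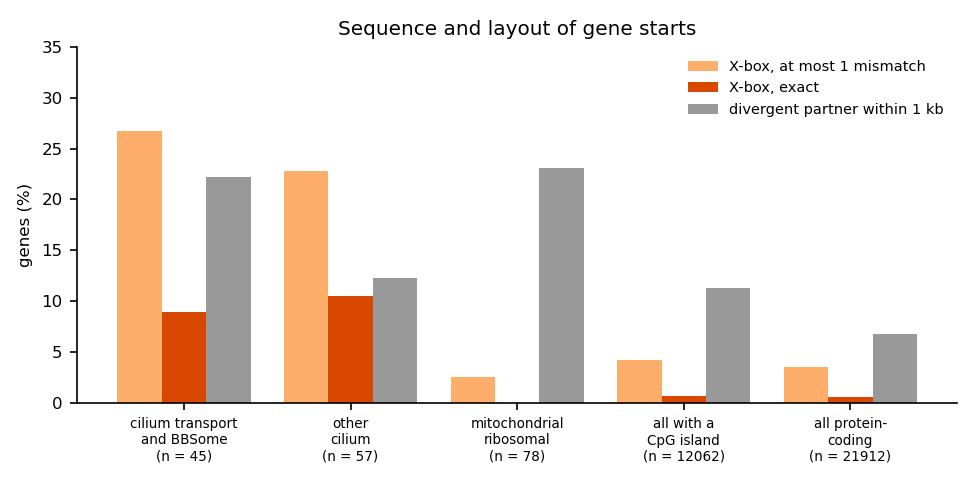
Percentage of genes with an X-box match within 250 bp of the 5′ end (at most 1 mismatch, or exact) and with a divergent coding gene within 1 kb, in 5 sets of genes. X-box matches are at 26.7% of the cilium transport and BBSome genes and 22.8% of the other cilium genes, against 3.54% of all genes.

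Within 100 kb of a TSS, 41 of the 45 genes (91.1%) had a listed peak, against 70.7% of all protein-coding genes and 86.5% of those with a CpG island. A GBR lay that near to 30 (66.7%), against 52.2% and 66.4%. The shares of the cilium genes were thus above those of all genes and near those of CpG island genes. The median number of listed peaks was 2 per gene, as over all genes. The 4 genes with none were Ift52, Ift57, Dync2h1 and Arl13b, whose nearest summits were 380653, 156088, 579886 and 117662 bp away.

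In all, 112 distinct peaks lay within 100 kb of these genes, and 47 were GBRs. Another coding gene's promoter held 55 (49.1%), 22 were at the promoter of one of the 45 genes, and 35 were distal, that is outside every promoter window. At least 1 distal peak lay within 100 kb of 19 genes (42.2%), against 37.3% of all and 44.8% of CpG island genes. A distal GBR lay near 10 (22.2%), against 20.9% and 26.1%. Inpp5e had the most GBRs, 7 among 9 listed peaks, with none at its own promoter. Of the 9 peaks, 7 were at promoters of other genes, the strongest (log2 3.22, rank 1285) nearest to Snapc4 and 28490 bp downstream of the Inpp5e TSS. Ift22 had the most listed peaks, 11, of which 7 were distal. The IFT-A gene Ift43, with no promoter peak, had 6 peaks, all distal, 3 of them GBRs and the strongest at 2.91 (rank 2439) 90760 bp downstream of its TSS. Ift140 had a distal GBR of 3.10 (rank 1659) 67231 bp downstream. The distal peaks nearest to a start included those of Ift81 (2.36, FDR 0.0374, 5111 bp into the gene) and the weak ones at Ofd1 (1.82, FDR 1) and Rpgrip1l (1.88, FDR 0.807).

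**Figure D4:**
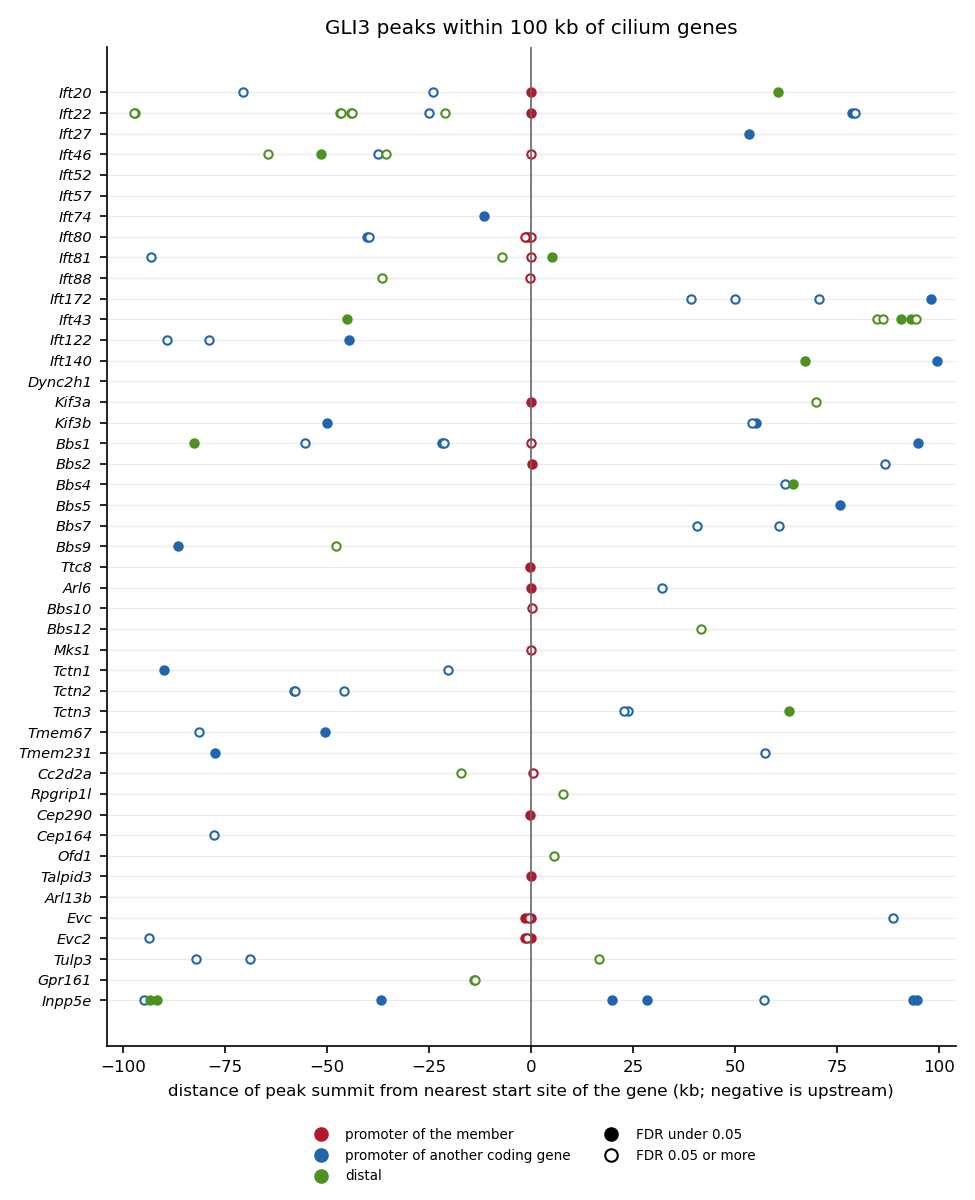
Position of every listed peak summit within 100 kb of each of the 45 cilium genes, in kb from the nearest TSS of that gene (negative is upstream). Red points are at the gene's own promoter, blue at the promoter of another coding gene and green distal, and filled points have an FDR under 0.05. Red points are present at 18 genes, and Ift52, Ift57, Dync2h1 and Arl13b have no point.

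For comparison, 57 other cilium genes of the same kinds were counted, a list that includes the RFX and FOXJ1 factors. Of these, 34 (59.6%) had a promoter peak and 15 (26.3%) a promoter GBR, and 0 of the 57 were among the 1000 highest ranks. The GBRs were at Hspb11 and Wdr35 (IFT), Kifap3 and Wdr34 (motors), B9d1, B9d2 and Tmem237 (transition zone), Ttbk2, Cep120, Intu and Cplane1 (basal body), Arl3 and Rab23 (trafficking), and Rfx2 and Rfx7. The highest of these was 3.22 at Arl3, the GTPase that releases lipid-modified cargo in the cilium. Kifap3 encodes the third subunit of the kinesin that contains KIF3A, and its peak had 2.53. The 78 mitochondrial ribosomal protein genes, a set with no ciliary role, had a promoter peak at 56.4% and a GBR at 26.9%. Of the 12 HH pathway core genes, 9 had a promoter GBR. Their log2 enrichment reached 6.05 at Ptch1, which encodes the HH receptor, and 5.76 at Gli1, a transcriptional target of the pathway, above the 4.14 at Arl6. The differences between these sets were not tested.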

How the data were processed

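Peaks came from 2 GLI3 ChIP replicates and 1 input. The labels name Bowtie2 2.2.5 and mm10, and the study's methods name CisGenome 2.1.0 with both replicates. The list is attached to ChIP replicate 1 and was treated as a joint call. Libraries had 15 PCR cycles. Per peak the authors deposited the largest log2 fold enrichment over input, an FDR (a q-value), a T score that sets the rank, and a Poisson p-value as −log10, capped at 100. The deposited values were used unchanged. The study's methods give only a minimum read number per library and the list holds no read counts, so no interval for counting error was computed.

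Peaks were matched to GRCm38.p6 (mm10) and to TSSs of protein-coding transcripts of 21911 GENCODE M21 basic genes, plus Tctn2, which that release does not type as protein coding and which was placed from RefSeq. Talpid3 is annotated as 2700049A03Rik. No peak end lay beyond its chromosome, and 5 peaks on unplaced sequence were left out. A CpG island was a 500 bp window of at least 55% GC whose CpG count exceeded 0.65 of expectation, within 1 kb of the 5′ end. Positions are printed as listed. Python 3.11.15 with numpy 2.4.6 and pandas 2.3.3 was used, and the counting was tested on simulated peaks.

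The genes, comparison lists and measures were chosen with earlier results of these data known. Shares are descriptions without tests. All 45 genes are accounted for. Other genes are named by rule where they share a divergent start or are nearest to a summit, or as other cilium genes with a promoter GBR. Snapc4, Ptch1 and Gli1 are named outside the rule, after their values were seen.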

Additional observations from a re-analysis of the deposited data

How the results depend on the processing

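The number of cilium genes with a promoter peak (18) was 11 with an FDR under 0.05 or under 0.01, beside 17.0% and 12.3% of all genes. It was 17 or 18 in the 4 alternatives that changed the window, the overlap or the TSSs, beside 28.3% to 30.9% of all genes. The number with a peak within 100 kb (41) was 30 at an FDR under 0.05, 22 at an FDR under 0.01, 34 within 50 kb, 24 within 20 kb and 19 without promoter summits, where the shares of all genes were 52.2%, 42.9%, 57.7%, 43.4% and 37.3%. The median log2 enrichment (2.64) was 3.05 for GBRs and 2.40 with each promoter peak counted once, beside 2.73 and 2.27 over all genes. Promoter peaks with a GLI match (2) numbered 0 without a mismatch, 1 within 100 bp of the summit and 1 in the whole peak, beside 1.15%, 7.20% and 11.1% of all promoter peaks. Genes with an X-box (12) numbered 4 without a mismatch and 15 within 500 bp, beside 0.566% and 5.52% of all genes. Stricter FDR limits, shorter distances, shorter windows and exact matches can only lower a count by construction, and the wider X-box window can only raise it.

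No paired analysis was possible because the peak list used here is 1 joint call without replicate columns, and for that reason leaving out each replicate was not run. How far the weaker peaks depend on depth was not tested.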
